A study of Arabidopsis thaliana with 8 samples.

Results

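Transcript levels after 1 h of red light were compared between Arabidopsis seedlings that carry mutations in both main red-light receptors, labelled phyAB, and wild-type seedlings of the Col ecotype. The comparison uses 4 of the 8 libraries, chosen by their titles: 2 of red-treated phyAB (phyAB red) and 2 of red-treated wild type (WT red). All 27416 gene models of the deposited read counts entered it, and 20716 had enough reads to be tested. The other 4 libraries, 2 of wild type kept in the dark (WT dark) and 2 of the red-treated phyB single mutant (phyB red), are given beside them for reference. All 8 libraries shared the fit, so these 4 also entered the read filter and the estimate of spread behind the p-values.

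All seedlings were of the Col ecotype, 4.5 days old, and grew on 1/2MS medium with 1% sucrose. After cold stratification, 12 h under white light and 21 more hours for germination, they stayed dark at 22 °C for 4 days, and 3 of the 4 groups then received 1 h of red light at 50 µmol. RNA came from whole seedlings, the labels name no mutant allele, and no dark phyAB library is used here. A difference between phyAB red and WT red that was present before the light pulse and one that the pulse produced therefore cannot be told apart. The labels do not say that the libraries of a group came from separate cultures, so the p-values measure only the spread between these libraries, which may be technical.

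Phytochromes are red and far-red light receptors that move into the nucleus when red light converts them to their active form. There they bind the PIF proteins, basic helix-loop-helix transcription factors that keep seedlings etiolated in the dark, and lead to their breakdown. They also hold back the COP1/SPA ubiquitin ligase, which lets HY5 and related activators of light-induced genes build up. Phytochrome A is abundant in the dark and is quickly degraded in light, and phytochrome B is the main receptor in continuous red light.

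Promoter sequences of 6 genes whose levels carry the results below are shown first, from 250 bases before to 50 bases after the annotated transcript start, 5′ to 3′ on the gene's strand (RefSeq, TAIR10.1 assembly). SAUR25 is a growth gene of the auxin response that was higher in phyAB red. Its capitals mark the PBE-box CACATG, a motif that PIF proteins are known to bind, on either strand.
SAUR25 (chr4:8000323-8000622, minus strand): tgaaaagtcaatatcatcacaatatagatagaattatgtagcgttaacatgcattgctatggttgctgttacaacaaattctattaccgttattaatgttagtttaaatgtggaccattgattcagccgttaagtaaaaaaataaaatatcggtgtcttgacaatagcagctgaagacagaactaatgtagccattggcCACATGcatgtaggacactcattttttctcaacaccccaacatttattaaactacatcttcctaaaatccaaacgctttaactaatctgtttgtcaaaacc

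PORA, LHCA1 and PSAF belong to chlorophyll synthesis, the light-harvesting antenna and photosystem I. The first was higher in phyAB red and the other two were lower. Their capitals mark the I-box GATAAG, a motif known from promoters of photosynthetic genes, on either strand.
PORA (chr5:21992765-21993064, minus strand): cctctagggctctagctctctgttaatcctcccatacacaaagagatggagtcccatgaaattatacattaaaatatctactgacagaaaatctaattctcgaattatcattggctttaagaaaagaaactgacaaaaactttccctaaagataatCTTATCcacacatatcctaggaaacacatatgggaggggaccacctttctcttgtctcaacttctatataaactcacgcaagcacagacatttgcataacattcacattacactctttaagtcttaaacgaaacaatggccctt
LHCA1 (chr3:20341127-20341426, minus strand): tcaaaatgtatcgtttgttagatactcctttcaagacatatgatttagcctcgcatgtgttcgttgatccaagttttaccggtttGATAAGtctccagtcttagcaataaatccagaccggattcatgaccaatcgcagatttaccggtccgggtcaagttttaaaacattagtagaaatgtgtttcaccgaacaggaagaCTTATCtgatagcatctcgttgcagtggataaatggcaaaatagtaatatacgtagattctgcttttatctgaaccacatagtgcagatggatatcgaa
PSAF (chr1:11216092-11216391, minus strand): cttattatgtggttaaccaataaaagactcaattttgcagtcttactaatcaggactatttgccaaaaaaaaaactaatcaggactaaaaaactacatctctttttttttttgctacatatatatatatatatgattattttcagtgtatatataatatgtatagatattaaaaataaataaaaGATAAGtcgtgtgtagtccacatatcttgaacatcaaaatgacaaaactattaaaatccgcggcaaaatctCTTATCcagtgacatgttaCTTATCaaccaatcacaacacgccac

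SMR7 and PARP2 are genes of the DNA damage response that were higher in phyAB red. Their capitals mark the outer letters of CTTNNNNNNNAAG, the motif that the damage response factor SOG1 is known to bind. That motif reads the same on both strands and was chosen after the values of these genes had been seen. The matches in SMR7 start at positions -43 and 28 from the transcript start, so the second lies after it.
SMR7 (chr3:10231518-10231817, minus strand): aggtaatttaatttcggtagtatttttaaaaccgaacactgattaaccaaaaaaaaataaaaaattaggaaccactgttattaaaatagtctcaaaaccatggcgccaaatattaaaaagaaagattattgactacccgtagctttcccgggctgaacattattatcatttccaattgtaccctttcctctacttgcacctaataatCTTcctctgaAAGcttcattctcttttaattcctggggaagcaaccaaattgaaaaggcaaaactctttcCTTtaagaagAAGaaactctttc
PARP2 (chr4:1049516-1049815, plus strand): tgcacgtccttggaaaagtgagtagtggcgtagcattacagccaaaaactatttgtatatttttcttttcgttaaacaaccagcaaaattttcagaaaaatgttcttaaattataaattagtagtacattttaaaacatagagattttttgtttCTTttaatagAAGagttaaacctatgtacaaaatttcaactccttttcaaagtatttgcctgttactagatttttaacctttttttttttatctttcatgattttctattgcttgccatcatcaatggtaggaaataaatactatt

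The receptor genes themselves were examined first. PHYA (AT1G09570, chromosome 1, 3095160 to 3100819) read 463 and 471 CPM (read counts scaled to library size and by TMM) in WT red and 124 and 123 in phyAB red. The groups did not overlap, and PHYA was 3.78-fold lower in phyAB red (log2 fold change -1.92 ± 0.033, SE, adjusted p = 1.48e-64). Adjusted p-values are those of edgeR's quasi-likelihood test with Benjamini-Hochberg adjustment over all genes tested, with a threshold of 0.05. Below, values in brackets without a named unit are log2 fold changes of phyAB red over WT red, with their SE after ±. WT dark stood at 834 and 828 CPM for PHYA and phyB red at 703 and 703, so both phyAB libraries lay far below all the others. PHYB (AT2G18790) read 96.0 and 95.2 CPM in WT red and 52.9 and 50.4 in phyAB red, and was 1.85-fold lower (adjusted p = 3.52e-30). In phyB red it read 62.3 and 64.3 CPM. Neither transcript was absent from the phyAB libraries.

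Of the 3 remaining phytochrome genes, 1 was called lower and the other two were not called. PHYC read 46.8 and 46.8 CPM in WT red against 40.8 and 38.5 CPM in phyAB red, 1.18-fold lower (adjusted p = 0.000348). PHYD read 10.9 and 10.7 CPM in WT red and 11.1 and 13.1 in phyAB red (adjusted p = 0.3), and PHYE read 19.0 and 18.1 CPM against 16.4 and 16.4 CPM (adjusted p = 0.101).

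**Figure D1:**
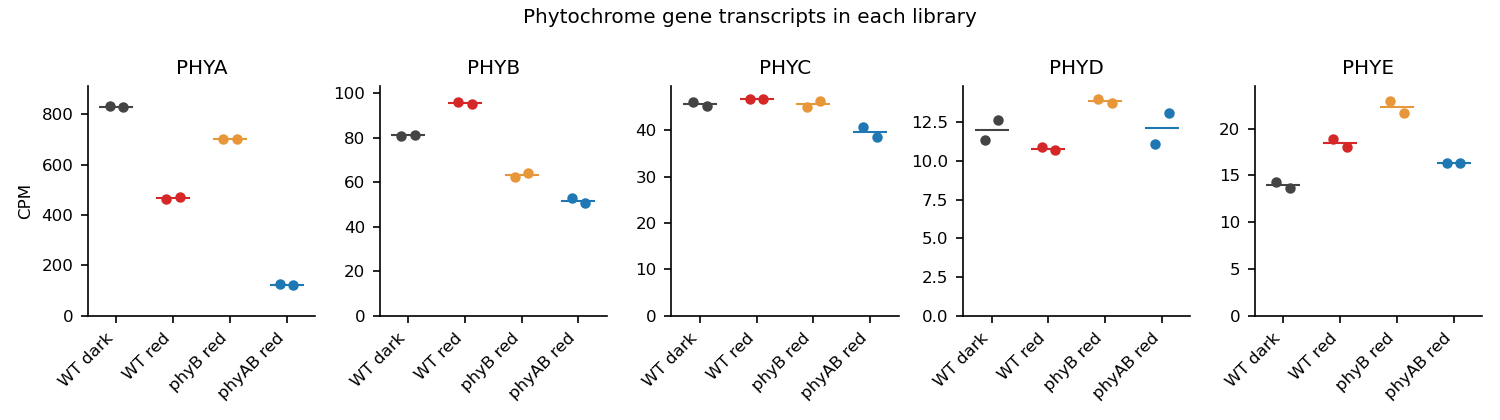
Transcript levels of the 5 phytochrome genes in CPM for each of the 8 libraries. Points are libraries and lines are group means. PHYA is lowest in phyAB red, at 124 and 123 CPM, and PHYD and PHYE show no called difference between phyAB red and WT red.

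Across the transcriptome, the libraries held 15926547 to 22116924 reads. Replicate libraries varied little beyond counting error, with 1.345- to 1.47-fold its variance, so small differences were called readily. Of the genes tested, 4618 (22.3%) were higher and 4693 (22.7%) lower in phyAB red than in WT red, with a median log2 fold change of 0.003 over all genes. Among them 850 (4.1%) were at least 2-fold higher and 612 (2.95%) at least 2-fold lower. At 4-fold or more, 230 genes (1.11%) were higher and 44 (0.212%) lower, so large differences were mostly increases. In 14511 genes (70%) the libraries of the compared groups did not overlap, so a lack of overlap alone was common. The counts of members given below are read against the shares of 22.3% and 22.7%. In bulk samples, fewer cells of a type and less RNA per cell cannot be told apart.

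The comparison of phyAB red with phyB red shares the phyAB libraries and gave 5389 genes higher (26%) and 4991 lower (24.1%). That with WT dark gave 5637 higher (27.2%) and 4349 lower (21%), and at 2-fold or more 1300 higher (6.28%) and 213 lower (1.03%). WT red against WT dark gave 4987 genes higher (24.1%) and 4709 lower (22.7%), and phyB red against WT red gave 2712 higher (13.1%) and 2896 lower (14%). Since these comparisons share libraries, their values are set side by side for the members and no overlap between them is drawn.

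**Figure D2:**
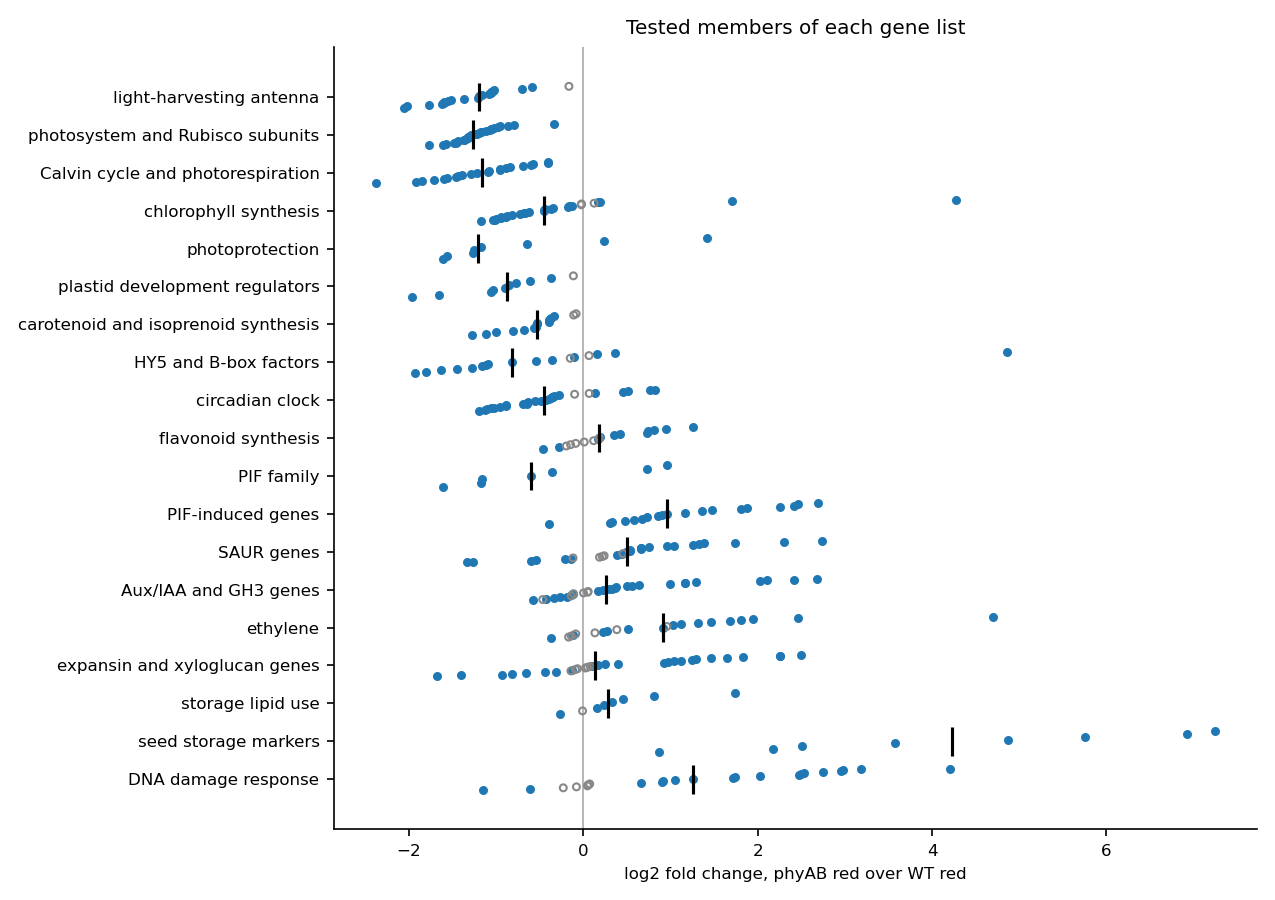
Log2 fold change of phyAB red over WT red for each tested member of 19 gene lists. Filled points passed the adjusted p threshold of 0.05, open points did not, and the black bar is the median of the list. Antenna, photosystem and Calvin cycle members lie left of 0, while 18 of 19 PIF-induced, all 8 tested seed storage and most DNA damage response members lie right of it.

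Genes of light signalling were mostly lower in phyAB red than in WT red. Of 20 phytochrome signalling genes, 13 fell in phyAB red relative to WT red, 2 rose and 5 were not called (median -0.25). SPA1, a subunit of the COP1 ubiquitin ligase, read 205 and 206 CPM in WT red and 79.5 and 80.5 in phyAB red. That is a log2 fold change of -1.36 ± 0.037 (adjusted p = 1.11e-49), and WT dark lay at 52.3 and 52.9 CPM. SPA3 (-1.02) and the ultraviolet-B pathway repressors RUP1 (-1.12) and RUP2 (-1.56) fell as well, and COP1 itself was 1.21-fold lower (adjusted p = 1.33e-05). The members that rose were FHY1 (1.58-fold) and FHL (2.3-fold), 2 proteins that carry phytochrome A into the nucleus. FHL read 3.16 and 3.01 CPM in WT red and 6.73 and 7.60 in phyAB red, against 9.82 and 7.52 CPM in WT dark.

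The PIF genes did not move together. PIF3 rose from 32.0 and 32.3 CPM in WT red to 60.7 and 64.9 CPM in phyAB red, above its level in WT dark of 39.2 and 41.2 CPM. Its log2 fold change was 0.96 ± 0.057 (adjusted p = 1.76e-26). PIF3 lies 4 annotated genes from PHYA on chromosome 1, and no tested gene among the 10 neighbours on each side of PHYA changed 2-fold, though PIF3 itself came near. Around PHYB no tested neighbour reached 2-fold either, but the adjacent gene XTH21 fell (-0.98, adjusted p = 0.000257), as did TPS11 (-0.82, adjusted p = 1.46e-36). The 2 genes differed in phyB red. XTH21 read 2.74 and 2.97 CPM there, below the 4.66 and 4.01 CPM of WT red. TPS11 read 335.9 and 349.9 CPM there, above the 292.0 and 291.5 CPM of WT red. Whether linkage to the mutated genes plays a part was not tested. PIF4, a growth-promoting factor, fell from 83.1 and 84.2 CPM to 37.7 and 36.6 CPM (-1.17 ± 0.051, adjusted p = 5.89e-35), next to 33.1 and 34.6 CPM in WT dark. PIF5 (-1.16) and PIF7 (-1.61) fell likewise, PIF1 fell less (-0.36), and PIF6 rose (0.73). Of the 7 family members, 2 rose and 5 fell.

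HY5, the bZIP activator of light-induced genes, read 39.7 and 43.5 CPM in WT red and 19.1 and 19.9 in phyAB red. The groups did not overlap (-1.09 ± 0.072, adjusted p = 1.02e-23), and WT dark lay at 25.2 and 22.5 CPM. Its homologue HYH fell by 1.28 on the log2 scale. Of 17 tested HY5 and B-box genes, 12 fell, 3 rose and 2 were not called (median -0.81), and 1 more, BBX16, had too few reads to test. BBX24, a B-box protein that holds back HY5 activity, read 408 and 403 CPM in WT red and 149 and 150 in phyAB red (-1.44 ± 0.031, adjusted p = 3.91e-57). BBX25 (-1.93), BBX30 (-1.80) and BBX31 (-1.63) also fell. BBX23 went the other way. It read 0.155 and 0.188 CPM in WT red and 4.70 and 5.66 in phyAB red, close to the 5.61 and 7.52 CPM of WT dark, while phyB red lay at 0.06 and 0.04 CPM (4.86 ± 0.391, adjusted p = 4.53e-19).

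The nuclear genes of photosynthesis were lower in phyAB red than in WT red almost without exception, yet higher than in WT dark. All 30 photosystem and Rubisco subunit genes fell, with a median log2 fold change of -1.26 against 0.003 over all genes. Against WT dark all 30 were higher in phyAB red (median 1.47), and in WT red against WT dark all 30 were higher too (median 2.70). Summed over the list, the level was 5273 and 5288 CPM in phyAB red, between WT dark (2306 and 2343) and WT red (12020 and 11960). phyB red lay highest, at 14710 and 14730 CPM, and all 30 genes were lower in phyAB red than in it (median -1.53).

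RCA, the activase that keeps Rubisco working, read 1227 and 1220 CPM in WT red and 353 and 363 in phyAB red. It was 3.42-fold lower (-1.77 ± 0.016, adjusted p = 6.5e-86) and lay between WT red and the 109 and 115 CPM of WT dark. PSAF, a plastocyanin-docking subunit of photosystem I, read 584 and 564 CPM against 219 and 227 CPM (-1.37 ± 0.025, adjusted p = 7.25e-62). The window shown for PSAF holds 3 I-boxes, at positions -66, 6 and 25 from the transcript start, so not all lie before it. The oxygen-evolving subunit gene PSBO1 (-1.18) and the Rubisco small subunit gene RBCS1A (-0.80) fell, and RBCS2B fell least of the list (-0.33). Rubisco small subunit genes are near-identical copies, and how reads that fit several genes were counted is not given in the sources used here, so their separate values are uncertain.

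Of the 20 antenna genes, which encode the chlorophyll-binding proteins of both photosystems, 19 fell and 1 was not called (median -1.20). In phyAB red against WT dark 19 were higher (median 1.65), and in WT red against WT dark 19 were higher (median 3.03). Their summed level was 5761 and 5766 CPM in phyAB red, against 2011 and 2011 in WT dark, and both red-treated WT (13700 and 13740) and phyB red (17530 and 17560) lay higher. LHCA1 of photosystem I read 1011 and 1012 CPM in WT red and 251 and 249 in phyAB red, 4.05-fold lower (-2.02 ± 0.021, adjusted p = 5.42e-81). LHCB1.4 of photosystem II read 395 and 400 CPM in WT red and 93.2 and 98.0 in phyAB red, from 4.86 and 5.80 CPM in WT dark. Both genes had non-overlapping groups. LHCB1.1 (-1.76) and LHCB2.1 (-1.62) followed, LHCB1.3 fell less (-0.58), and LHCB4.3 was not called, at 14.8 and 14.4 CPM against 13.2 and 12.8 CPM (adjusted p = 0.2). The LHCB1 genes are near-identical copies, so their separate values carry the same uncertainty.

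The Calvin cycle and photorespiration list, chosen after values of these data had been seen, showed all 22 members lower (median -1.16). CP12-2, a redox switch protein that binds Calvin cycle enzymes, read 43.6 and 43.4 CPM in WT red and 8.72 and 7.95 in phyAB red (-2.38 ± 0.084, adjusted p = 1.44e-41). GLDP1, a subunit of the photorespiratory glycine decarboxylase, was 2.95-fold lower, and PRK, which makes the CO2 acceptor of the cycle, was 1.52-fold lower. Against WT dark, 20 of the 22 were higher in phyAB red and 2 lower.

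Regulators of plastid development followed the same order. SIG5, a sigma factor that directs plastid RNA polymerase, read 50.7 and 48.4 CPM in WT red, 12.6 and 12.8 in phyAB red and 2.85 and 3.65 in WT dark. It was 3.91-fold lower in phyAB red than in WT red (-1.97 ± 0.074, adjusted p = 1.17e-39). The GATA factor CGA1 (-1.65) and the Golden2-like factor GLK2 (-1.04) fell, and in all 9 of 10 members fell (median -0.88). GLK1 fell by 0.37 on the log2 scale, but without WT red replicate 2 it no longer passed (-0.28, adjusted p = 0.144). Of 17 carotenoid and isoprenoid genes, 15 fell and none rose (median -0.53). They included the violaxanthin de-epoxidase gene VDE1 (-1.28), the lutein synthesis gene LUT5 (-1.12) and the phytoene synthase gene PSY (-0.80).

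In chlorophyll synthesis, 2 genes of protochlorophyllide reductases, PORA and PORB, rose by more than 2-fold, while most other genes fell. PORA, the reductase that accumulates in dark-grown seedlings and disappears in light, read 18.23 and 21.18 CPM in WT red and 380.5 and 379.6 in phyAB red. It was 19.4-fold higher (4.28 ± 0.047, adjusted p = 1.61e-79). In WT dark it stood at 134.5 and 141 CPM and in phyB red at 16.8 and 17.2 CPM, so phyAB red lay above every other group, the dark one included. PORB read 133 and 136 CPM in WT red, 438 and 435 in phyAB red and 193 and 190 in WT dark (1.70 ± 0.031, adjusted p = 3.78e-62). It too was above all other groups. PORC, the light-induced reductase, read 32.4 and 31.5 CPM against 28.3 and 28.1 CPM (adjusted p = 0.0295), and this call was lost when any 1 of the 4 compared libraries was left out (adjusted p = 0.0585 to 0.172).

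Of the 28 chlorophyll genes tested, 21 fell, 4 rose and 3 were not called (median -0.45). HEMA1, the enzyme of the first committed step, fell from 227 and 230 CPM to 120 and 117 CPM (-0.94 ± 0.035, adjusted p = 2.62e-40). GUN4, a magnesium chelatase activator, fell from 115.5 and 119 CPM to 50.7 and 53.8 CPM (-1.17 ± 0.045, adjusted p = 4.88e-39). GUN5, the chelatase subunit it binds, fell by 0.82 and the methyltransferase gene CHLM by 1.03. The other genes that rose were the geranylgeranyl reductase gene GGR (1.12-fold) and the ferrochelatase gene FC1 (adjusted p = 0.000369). Among 8 photoprotection genes, 6 fell and 2 rose. LIL3.2, of the light-harvesting-like family, rose from 81.3 and 75.5 CPM to 210 and 209 CPM (1.41 ± 0.038, adjusted p = 9.64e-50), next to 173 and 179 CPM in WT dark. The early light-induced proteins parted: ELIP2 fell from 109 and 109 CPM to 48.3 and 48.5 CPM, and ELIP1 rose slightly from 68.1 and 68.3 CPM to 78.5 and 82.7 CPM.

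**Figure D3:**
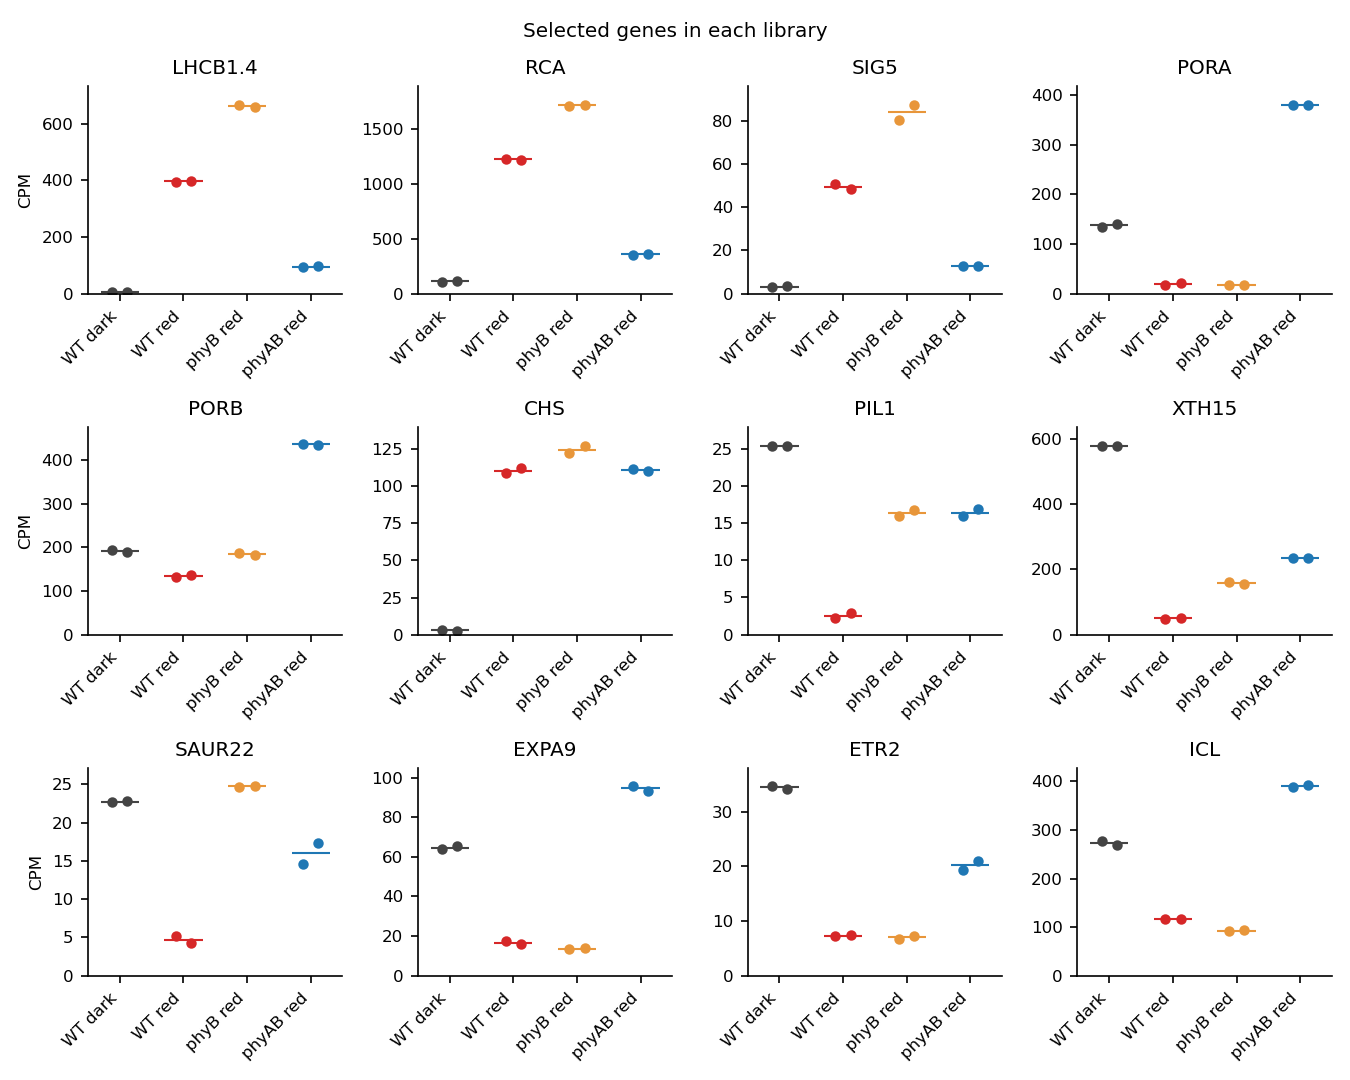
CPM of 12 genes in each library, with points for libraries and lines for group means. LHCB1.4, RCA and SIG5 in phyAB red lie between WT dark and WT red, PORA, PORB, EXPA9 and ICL in phyAB red lie above every other group, and CHS in phyAB red lies at the level of WT red.

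Flavonoid genes stood apart from those of photosynthesis. CHS, the first enzyme of flavonoid synthesis, read 109 and 112 CPM in WT red and 112 and 111 in phyAB red, with 3.06 and 2.58 CPM in WT dark. The libraries of the groups overlapped and the log2 fold change was 0.01 ± 0.039 (adjusted p = 0.851), while against WT dark phyAB red was higher by 5.30. CHI did not pass the test (-0.09, adjusted p = 0.563) and F3H fell (-0.28). Of 17 tested members, 9 rose, 2 fell and 6 were not called (median 0.18). With DESeq2 5 rose and 1 fell. PAP1, a MYB activator of anthocyanin genes, read 3.94 and 3.82 CPM in WT red and 7.32 and 6.24 in phyAB red (0.81 ± 0.207, adjusted p = 0.000667). LDOX, a late anthocyanin enzyme, read 2.95 and 1.76 CPM in WT red and 4.88 and 4.36 in phyAB red (adjusted p = 0.000766), and no WT dark library held a read of it. Single libraries decided several of these calls: F3H (adjusted p = 0.156) and DFR, the enzyme before LDOX (adjusted p = 0.0832), were lost without WT red replicate 1, and LDOX without WT red replicate 2 (adjusted p = 0.0656). PAP1 was not called by DESeq2 (adjusted p = 0.323).

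Genes that PIF proteins are known to activate were higher in phyAB red than in WT red and close to phyB red. Of the 19 in the list, 18 rose and 1 fell (median 0.96). Against phyB red 5 were higher, 6 lower and 8 not called, and against WT dark 2 were higher and 14 lower. The summed level was 865 and 855 CPM in phyAB red, near phyB red (901 and 910), and stood between WT red (462 and 464) and WT dark (1409 and 1410). PIL1, a helix-loop-helix protein induced by shade, read 2.23 and 2.88 CPM in WT red and 15.9 and 16.9 in phyAB red (2.69 ± 0.142, adjusted p = 1.18e-29). phyB red read 15.9 and 16.7 CPM, so both mutants lay between WT red and the 25.4 and 25.5 CPM of WT dark. XTH15, a cell-wall enzyme gene, read 49.0 and 49.8 CPM in WT red, 236 and 235 in phyAB red and 160 and 154 in phyB red (phyAB against WT red 2.25 ± 0.042, adjusted p = 1.65e-61). For XTH15 phyAB red was 0.59 above phyB red on the log2 scale, with no overlap, and still below the 578 and 581 CPM of WT dark.

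IAA19, an auxin-response repressor gene, read 53.3 and 54.6 CPM in WT red and 119 and 124 in phyAB red (1.17 ± 0.045, adjusted p = 4.43e-39). Its phyB red libraries read 124.5 and 131.7 CPM. IAA29 (2.41), the ethylene synthesis gene ACS8 (2.46), ST2A (1.88) and PRE1 (1.48) rose too, and the shade marker ATHB2 rose by 0.68. The member that fell was HFR1, a helix-loop-helix protein that restrains PIFs, from 183 and 183 CPM to 142 and 136 CPM (-0.39 ± 0.035, adjusted p = 5.27e-17). The calls of the auxin synthesis genes YUC8 and YUC9 were each lost without WT red replicate 1, WT red replicate 2 or phyAB red replicate 1 (adjusted p = 0.0604 to 0.278 for YUC8 and 0.104 to 0.28 for YUC9).

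Auxin-response genes leaned the same way. Of 30 SAUR genes, whose small proteins promote cell expansion, 19 rose, 6 fell and 5 were not called (median 0.51). Set against phyB red, 25 of the 30 were lower in phyAB red and 2 higher (median -0.87). The summed level was 401.5 and 397.3 CPM in phyAB red, only slightly above WT red (367.3 and 364.1) and well below phyB red (693.5 and 706.6). SAUR22 read 5.13 and 4.26 CPM in WT red, 14.6 and 17.38 in phyAB red and 24.6 and 24.8 in phyB red, so phyAB red stood between them without overlap. It was 3.35-fold higher in phyAB red than in WT red (adjusted p = 7.54e-22). SAUR25, with a PBE-box 51 bases before its start, read 0.880 and 0.877 CPM in WT red and 6.10 and 5.66 in phyAB red, and 5.36 and 5.44 CPM in phyB red (phyAB against WT red 2.74 ± 0.251, adjusted p = 2.82e-16). SAUR14 went the other way, from 31.6 and 30.9 CPM to 12.0 and 14.3 CPM. Close copies exist among the SAUR genes, and their separate values are uncertain for that reason.

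Of 30 tested Aux/IAA and GH3 genes, 17 rose, 7 fell and 6 were not called (median 0.26). GH3.3, which conjugates auxin to amino acids, read 3.88 and 4.26 CPM in WT red and 26.8 and 25.0 in phyAB red, with 21.7 and 22.8 CPM in WT dark (2.68 ± 0.117, adjusted p = 4.58e-35). The groups compared did not overlap, and phyB red lay lower than phyAB red at 9.79 and 9.84 CPM. GH3.1 (2.02), IAA20 (2.11) and IAA5 (1.29) rose, and IAA28 (-0.57) and IAA12 (-0.34) were among those that fell.

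Ethylene genes were also higher. Of 21, 13 rose, 2 fell and 6 were not called (median 0.91). WT red against WT dark showed 16 of the 21 lower and 2 higher (median -1.13). ETR2, an ethylene receptor, read 19.3 and 21.0 CPM in phyAB red, against 7.15 and 7.46 in WT red and 6.73 and 7.24 in phyB red (phyAB against WT red 1.46 ± 0.106, adjusted p = 2.05e-21). WT red and phyB red overlapped, and phyAB red lay between them and the 34.8 and 34.1 CPM of WT dark. ACS5, which makes the ethylene precursor, rose from 5.54 and 5.14 CPM to 19.7 and 21.9 CPM (1.95 ± 0.116, adjusted p = 2.17e-26). HLS1, required for the apical hook that protects the shoot tip underground, rose from 2.796 and 3.698 CPM to 11.2 and 11.4 CPM, next to 12.3 and 13.2 CPM in WT dark (1.81 ± 0.16, adjusted p = 4.84e-17). EBF2, an F-box protein that removes the ethylene factor EIN3, rose as well (1.03), and the members that fell were ACO4 (-0.37) and EIN3 (-0.11). ACS9 had 2 reads over both WT red libraries and 64 over both phyAB libraries, a ratio of 28.85 with a 95% exact binomial counting interval of 7.667 to 243.3 that covers counting error only.

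The expansin and xyloglucan enzyme genes, which loosen and remodel cell walls, changed in both directions. Of 30, 16 rose, 8 fell and 6 were not called (median 0.13). EXPA9 read 95.8 and 93.4 CPM in phyAB red, against 17.2 and 16.1 in WT red and 13.2 and 14.1 in phyB red (phyAB against WT red 2.50 ± 0.06, adjusted p = 1.67e-53). XTH19 read 338 and 339 CPM in phyAB red, against 69.0 and 72.6 in WT red and 81.3 and 82.1 in phyB red (2.26 ± 0.036, adjusted p = 1.01e-66). Both exceeded even WT dark, at 63.9 and 65.4 CPM for EXPA9 and 214 and 221 CPM for XTH19. EXPA11 (3.55-fold), XTH17 (2.38-fold) and XTH18 (2.06-fold) rose too. EXPA1 fell from 214 and 209 CPM to 65.0 and 67.2 CPM (-1.68 ± 0.039, adjusted p = 6.84e-55), and EXPA16 was 2.63-fold lower.

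Among 18 tested gibberellin genes, 6 rose and 5 fell. GA2OX1, which inactivates gibberellin, read 12.0 and 12.6 CPM in WT red and 4.2 and 4.06 in phyAB red (-1.57 ± 0.144, adjusted p = 3.13e-16). GA3OX1, which makes the active hormone, read 11.2 and 11.1 CPM against 20.86 and 23.62 CPM (0.99 ± 0.099, adjusted p = 1.29e-14), while GA2OX8, another inactivating enzyme, rose by 1.77. None of the 15 brassinosteroid genes changed 2-fold, with 4 higher and 7 lower. Without WT red replicate 1 or phyAB red replicate 1, 3 gibberellin and 4 brassinosteroid genes were lower.

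Of 28 circadian clock genes, 21 fell, 5 rose and 2 were not called (median -0.45). PRR9, a light-induced repressor of the morning loop, read 13.5 and 14.6 CPM in WT red and 5.56 and 6.77 in phyAB red, near the 5.96 and 4.72 CPM of WT dark (-1.20 ± 0.132, adjusted p = 8.21e-13). The groups compared did not overlap. LNK1 (-1.03), ELF4 (-1.12), RVE7 (-1.11) and RVE4 (-0.95) fell, as did GI (-0.64). LHY, a morning repressor, rose from 48.2 and 49.0 CPM to 84.9 and 87.3 CPM (0.82 ± 0.048, adjusted p = 7.09e-27), and the LUX-related gene BOA rose by 0.76. CCA1, the partner of LHY, passed narrowly (0.13) and lost the call without WT red replicate 1 (adjusted p = 0.119) or phyAB red replicate 2 (adjusted p = 0.248).

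Metabolic and stress lists came next. Of 8 genes of storage lipid use, 6 rose and 1 fell (median 0.28). ICL, the isocitrate lyase of the glyoxylate cycle that turns seed oil into sugar, read 388 and 392 CPM in phyAB red, against 116 and 116 in WT red and 91.2 and 93.3 in phyB red (3.35-fold higher than WT red, adjusted p = 8.08e-62). That was above the 277 and 269 CPM of WT dark, and MLS (0.81) and PCK1 (0.45) rose as well. Of 15 touch and wound genes, 8 rose and 1 fell (median 0.35), with the calmodulin-like gene TCH3 at 42.3 and 44.2 CPM against 114 and 112 CPM. The fall, of the cold-response factor gene CBF3, was not called without WT red replicate 1 (adjusted p = 0.199), without phyAB red replicate 1 (0.243) or by DESeq2 (0.0933). Of 8 endoplasmic reticulum chaperone genes, 6 rose, each by under 1.5-fold, and 1, BIP3, fell. Heat shock genes gave 1 higher and 3 lower of 8, sugar starvation genes 3 higher and 4 lower of 8, and stomatal lineage genes 0 higher and 1, STOMAGEN, lower of 7. Without WT red replicate 1, 1 heat shock gene was lower instead of 3. The calls of BIP3 and STOMAGEN were lost without WT red replicate 1 (adjusted p = 0.167 and 0.0518), without phyAB red replicate 2 (0.359 and 0.115) and by DESeq2 (0.126 and 0.0569). Root markers gave 4 higher and 3 lower of 7 tested, and their summed level was 18390 and 18380 CPM in WT red and 16000 and 15890 in phyAB red, nearly all of it PYK10. IRT1, called lower, was not called by DESeq2 (adjusted p = 0.17), with no filter on low counts (0.07) or with a replicate block (0.0506). COBL9 (0.149) and EXPA7 (0.0838), called higher, were not called by DESeq2. Without WT red replicate 1 or phyAB red replicate 2, 2 root markers were higher, and without phyAB red replicate 1, 1 was lower.

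Seed storage and oil body genes, listed as markers of seed tissue, were higher in phyAB red than in every other group. All 8 tested members of 11 rose (median 4.23, or 3.4 with SESA2 set at its lower bound). The 3 others had too few reads to test, and since a gene can pass the read filter through phyAB red alone, this count is a description. The list summed to 79.4 and 78.6 CPM in phyAB red, against 11.3 and 11.1 CPM in WT red, 7.11 and 7.30 in WT dark and 8.48 and 8.09 in phyB red. CRC, a cruciferin storage protein, read 0.0518 and 0.313 CPM in WT red and 27.3 and 26.3 in phyAB red (7.25 ± 0.265, adjusted p = 2.22e-40). CRA1, another cruciferin, read 0.673 and 0.0627 CPM against 21.5 and 22.2 CPM (5.76 ± 0.244, adjusted p = 6.58e-36). In WT red these genes rested on a handful of reads, and no library of the other groups came near phyAB red.

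The oleosin genes OLEO1 (3.58) and OLEO2 (2.17) and the late-embryogenesis gene EM1 (2.51) rose. EM6, the list member with the most reads in WT red, rose from 8.65 and 8.34 CPM to 15.6 and 15.5 CPM (0.87 ± 0.123, adjusted p = 3.71e-09). SESA2, a 2S albumin, had 0 reads in WT red and 31 in phyAB red, at least 9.316-fold higher when WT red is set to a floor of 3 reads over the group. SESA3 and SESA1, with 23 and 10 reads in phyAB red, had 0 in WT red, and CRB had 72 reads against 2, a ratio of 32.45 (95% counting interval 8.664 to 273.1). On a further list of 15 seed maturation genes, chosen after values had been seen, 6 of 9 tested rose and 2 fell. RAB18, 1 of the 2 that fell, was not called without WT red replicate 1 (adjusted p = 0.296), without phyAB red replicate 2 (0.259), with a filter of 1 CPM in 2 libraries (0.0515) or by DESeq2 (0.369). SESA5 (4.24), BGLU19 (2.87) and the embryo regulator ABI3 (2.31-fold) rose, and the dormancy gene DOG1 fell from 1.295 and 1.003 CPM to 0.136 and 0.118 CPM (-3.12 ± 0.598, adjusted p = 7.25e-06). In phyAB red DOG1 rested on few reads. Against WT dark, 6 of the 9 tested members were higher in phyAB red and 0 lower, so DOG1 was not called lower there. The embryo regulators LEC1, LEC2 and FUS3 had 0 to 3 reads in each library. The part that seed tissue had in the other differences between phyAB red and WT red was not tested.

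A set of DNA damage response genes showed the same separation of phyAB red from the 3 other groups. The list of 24 was drawn up after the values of some of its members had been seen, so its counts are a description. Of 23 tested, 16 rose, 2 fell and 5 were not called (median 1.26), and 13 rose and 1 fell by 2-fold or more, next to 4.1% and 2.95% of all genes. Against phyB red 16 were higher and 2 lower, and against WT dark 17 were higher and 3 lower (median 1.32). In WT red against WT dark 3 of the 23 were higher and 1 lower (median -0.05). The summed level was 793 and 790.0 CPM in phyAB red and 301 to 316 CPM in the other 6 libraries.

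TSO2, a ribonucleotide reductase subunit that supplies DNA precursors, read 271 and 277 CPM in phyAB red. Its libraries in WT dark (32.8 and 34.5), WT red (33.3 and 36.2) and phyB red (30.8 and 33.5) lay far lower. The 3 other groups overlapped, and phyAB red was 7.89-fold above WT red (2.98 ± 0.044, adjusted p = 7.12e-70). SMR7, a cyclin-dependent kinase inhibitor induced by DNA damage, read 1.4 and 2.13 CPM in WT red and 33.8 and 30.0 in phyAB red (4.2 ± 0.155, adjusted p = 3.15e-40). PARP2, a poly(ADP-ribose) polymerase that senses strand breaks, read 5.489 and 4.199 CPM against 44.98 and 43.88 CPM (3.18 ± 0.106, adjusted p = 3.7e-43). BRCA1, which acts in homologous recombination, read 3.88 and 3.70 CPM against 29.7 and 29.3 CPM (7.76-fold, adjusted p = 2.12e-35). None of these groups overlapped.

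The meiotic and repair gene XRI1 (2.75), COM1 (2.50), the second inhibitor SMR5 (2.47), the NAC factor NAC044 (2.53) and the mitotic cyclin CYCB1.1 (1.74) rose. RNR1 (0.92) and AGO2 (0.66) rose less. WEE1 rose by 0.90, a call lost without phyAB red replicate 1 (adjusted p = 0.0843). SOG1, the transcription factor that drives this response, stood at 22.0 and 22.0 CPM in WT red and 21.3 and 20.3 in phyAB red (-0.08, adjusted p = 0.459), and the damage-sensing kinase gene ATM did not pass either (0.07, adjusted p = 0.392). KU70, of the end-joining pathway, fell from 26.3 and 26.8 CPM to 12.7 and 10.9 CPM (-1.15 ± 0.087, adjusted p = 1.95e-20), below the 25.62 to 28.02 CPM of the other 4 libraries, while KU80, its partner, was not called (0.06).

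**Figure D4:**
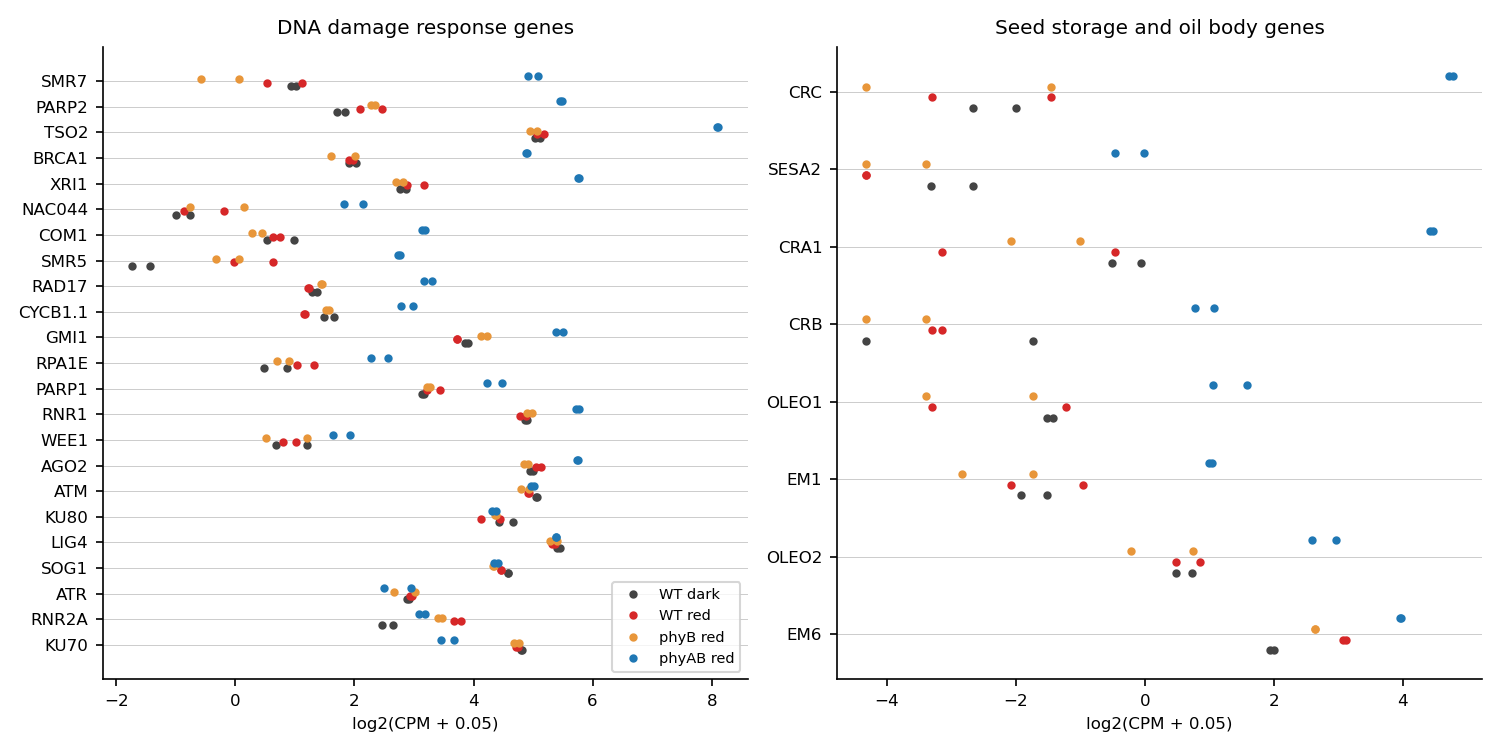
Level of each tested DNA damage response gene (left) and seed storage or oil body gene (right) in each library, as log2 of CPM plus 0.05. Points are libraries, coloured by group. For SMR7, PARP2, TSO2, BRCA1, CRC and CRA1 both phyAB red points lie right of the other 6, and for SOG1 and ATM the groups lie close together.

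Taken by size alone, the 10 highest changes (non-overlapping groups, mean level of 5 CPM or more over all libraries) included CRC, CRA1, PORA and SMR7. QRT1, a pectin methylesterase known for separating pollen grains, read 0.777 and 0.627 CPM in WT red and 40.4 and 41.5 in phyAB red (5.84 ± 0.168, adjusted p = 7.84e-48), with 0.436 to 0.966 CPM in the other 4 libraries. EARLI1, a lipid-transfer-like cell-wall protein, read 6.01 and 5.64 CPM against 90.7 and 88.0 CPM (15.3-fold, adjusted p = 2.79e-58). AT2G18193 read 13.8 and 14.5 CPM against 174 and 176 CPM (3.63 ± 0.056, adjusted p = 4.59e-68). In the phyB red libraries EARLI1 read 9.73 and 11.69 CPM, above WT red (adjusted p = 2.85e-09), and AT2G18193 read 10.04 and 10.07 CPM, below WT red (adjusted p = 2.75e-05). In each of these 3 genes both phyAB red libraries lay far above the 6 others. AT5G53660 and CYP96A5 behaved otherwise. AT5G53660 read 0.932 and 0.564 CPM in WT red and 23.0 and 23.5 in phyAB red, at the 23.1 and 20.1 CPM of WT dark (4.91 ± 0.181, adjusted p = 4.17e-40). CYP96A5 rose by 4.29, to 15.5 and 12.3 CPM next to 14.8 and 13.9 CPM in WT dark. AT5G60250 completed the list (3.77).

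The 10 lowest included CP12-2 and LHCB1.4. XTH6, a xyloglucan enzyme gene, fell from 10.7 and 10.4 CPM in WT red to 1.49 and 0.943 CPM in phyAB red (-3.07 ± 0.201, adjusted p = 6.79e-24). MSRB6, a methionine sulfoxide reductase gene, read 77.4 and 75.5 CPM against 18.9 and 14.7 CPM, 4.49-fold lower (adjusted p = 6.58e-47). The neighbouring near-identical genes AT3G25820 (184 and 179 CPM against 38.03 and 37.46 CPM) and AT3G25830 fell by 2.26 and 2.21, and reads cannot be assigned to one of the pair with certainty. UBC31 fell by 2.11, AT1G26761 by 2.08 and AT3G56290 by 2.06. AT3G05950, the first in size, had 173 reads in WT red and 3 in phyAB red, a ratio of 63.97 (95% counting interval 21.53 to 313.2). In the other direction TAT3, a tyrosine aminotransferase-like gene, had 3 reads in WT red and 120 in phyAB red, a ratio of 36.06 (12.05 to 177.3).

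Changes of 2-fold or more were spread over the genome. By chromosome, 3.4% to 5.1% of tested genes were higher and 2.62% to 3.31% lower. There were 7 runs of 3 or more adjacent tested genes higher by at least 2-fold, with 24 genes in all and a longest run of 4, and 5 such runs lower, with 17 genes and a longest run of 5. Some members rested on few reads. DESeq2 did not call AT1G15600, AT1G60110, AT5G02210 and AT5G20810 of the higher runs (adjusted p = 0.0879 to 0.19). It also did not call AT4G15660 and AT4G15670 of the longest lower run (0.189 and 0.105). These runs therefore depend on the test used. A run on chromosome 4 holds the lipid-transfer-like genes AZI1 (2.53) and EARLI1. AZI1 read 70.0 and 75.3 CPM in WT red and 421.5 and 414 in phyAB red. Neighbours in such runs can be close copies or overlap on opposite strands, and without a stated strand setting their reads cannot be told apart.

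The promoter motifs were then counted over all genes. The I-box GATAAG was found in the windows of 26.7% of genes at least 2-fold lower, 12.4% of those at least 2-fold higher and 14.8% of all tested genes. It was in 18 of 30 photosystem and Rubisco genes (60%) and 6 of 20 antenna genes (30%), but in only 3 of 22 Calvin cycle and photorespiration genes (13.6%). Gibberellin (31.6%), storage lipid (37.5%) and sugar starvation genes (37.5%) had shares as high as the antenna, so the share did not follow direction list by list. The PBE-box CACATG was in 19.7% of the higher, 14.4% of the lower and 13% of all tested genes, in 20 of 30 SAUR genes (66.7%) and in 7 of 19 PIF-induced genes (36.8%). It was also in 7 of 15 brassinosteroid genes (46.7%) and 4 of 9 stomatal lineage genes (44.4%), lists without a 2-fold change. The G-box CACGTG, another motif known to be bound by PIFs, was in 11% of the higher, 12.8% of the lower and 8.82% of all tested genes. CTTNNNNNNNAAG was in 13.5% of the higher, 11.5% of the lower and 11.3% of all tested genes, and in 7 of 24 DNA damage response genes (29.2%). These 7 were PARP2, SMR5, SMR7, COM1, NAC044, RNR1 and LIG4, of which LIG4 was not called. The evening element AAATATCT and the auxin element TGTCTC were in 5.81% and 13.7% of all tested genes, in 6.24% and 14.4% of the higher and in 7.54% and 16.7% of the lower. Each motif was searched on both strands in windows of 300 bases, available for 20500 of the 20716 tested genes, and a match is a description of these letters only.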

How the data were processed

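RNA-seq libraries of 4 groups with 2 libraries each were analysed from read counts per gene model, deposited by the authors as whole numbers that were not normalized, per the file headers. The RPKM values that the authors deposited beside them scale the counts by model length and library total and were not used for tests. The genome build is TAIR10, per the submitters' processing notes, and positions, symbols and promoter windows come from RefSeq's TAIR10.1 assembly. The treatment of reads with several matches, the aligner, the counting tool and the strand setting are details not given in the sources used here.

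Counts were fitted with edgeR 4.0.16 under R 4.3.3. Low genes were removed with filterByExpr (minimum count 10), TMM factors scaled the libraries, and 1 model with 4 group means was fitted to all 8 libraries. Contrasts used edgeR's quasi-likelihood F-test, and p-values were adjusted by Benjamini-Hochberg with a threshold of 0.05. The procedure was also run on simulated counts in which all genes shared the same spread and few were changed. That setting is simpler than these data, so it does not give the error rate here. SE is |log2 fold change| over the square root of F. In 280 genes (1.35%) it was below counting error alone, so their p-values are too small, but 0 of the 9311 calls changed by under 2 counting errors. CPM values are scaled by TMM. A gene at 0 reads in a group is set against a floor of 3 reads over the group, and one at 1 to 3 reads is given as a ratio with a 95% exact binomial interval, both covering counting error only.

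The comparison and the 30 gene lists (512 genes) were chosen with earlier results of these data known, and 3 of the lists (DNA damage response, Calvin cycle and photorespiration, seed maturation) were added after seeing the files. One gene of the DNA damage response list and 1 promoter sequence are not reported here. The rule for named genes takes the phytochromes, the 10 highest and 10 lowest changes with non-overlapping groups and a mean of at least 5 CPM, the 6 largest changes of each list and a set of light-response genes. It also takes genes with at most 3 reads in one group and at least 100 in the other, and neighbours and runs. Members named beyond it were chosen after their values were seen. Same-numbered libraries did not deviate together (correlations -0.004 to 0.027), so no pairing was used. Alternatives were DESeq2 1.42.0, its size factors in edgeR, other filters, a replicate block, a test against a 2-fold change and leaving out each library.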

Additional observations from a re-analysis of the deposited data

How the results depend on the processing

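No result changed direction with a call under the alternatives run, but calls were lost. Among the listed, top, run and neighbouring genes, 48 lost their call with DESeq2 and 521 kept their outcome. Tested against a 2-fold change instead of no change, phyAB red had 336 genes higher and 268 lower than WT red, 441 higher and 495 lower than phyB red, and 648 higher and 77 lower than WT dark. These are fewer because the test asks for more than 2-fold. Under each other alternative these counts moved by less than 1.5 times. With 1 library left out at a time, 3705 to 4636 genes were higher and 3933 to 4734 lower than in WT red, and 790 to 876 and 604 to 626 at 2-fold or more. Where a left-out library leaves 1 sample in a group, that sample is assumed to vary like the others. DESeq2's Wald test called 7035 genes between phyAB red and WT red, all of them called in the same direction by edgeR. With it, counts of some lists shifted by over 1.5 times: 5 instead of 8 touch and wound genes higher, 5 instead of 9 flavonoid genes higher and 1 instead of 2 lower, 4 instead of 7 brassinosteroid, 3 instead of 5 gibberellin and 1 instead of 3 heat shock genes lower, 2 instead of 4 root markers higher, 1 instead of 2 seed maturation genes lower, and 0 instead of 1 lower among touch and wound, endoplasmic reticulum chaperone and stomatal lineage genes. Without WT red replicate 1, the same counts were found for all of these except the touch and wound and flavonoid genes higher. Without phyAB red replicate 1 they were found for the brassinosteroid, gibberellin and touch and wound genes lower, and 1 instead of 3 root markers was lower. Without phyAB red replicate 2 they were found for the root markers higher and the chaperone, stomatal lineage and seed maturation genes lower. The replicate block left the counts within 1.5 times (4601 higher and 4694 lower than WT red), and of the named genes IRT1 and AT2G18770 lost their call. The labels' numbers pair no samples. Scaling by DESeq2's size factors moved the median of all genes by at most 0.0145 on the log2 scale. With 2 libraries a group and no statement of separate cultures, small differences pass the test but their stability between cultures cannot be judged here.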
